A study of Mus musculus with 11 samples.

Results

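Mki67, Aspm, Kif14, Racgap1 and Neil3 are 5 genes of mitosis, cell division and chromosome maintenance, chosen by name from the 178 genes of a deposited table of mouse gingival epithelium. The table gives 11 RNA sequencing libraries from male B6 mice, whose gingiva was treated with Dispase (4 mg/ml, 30 min) so that the epithelium could be peeled off before polyA RNA was extracted. Naive mice (n = 4 libraries) had no ligature, ligature mice (n = 3) carried silk threads tied around the second molars of the upper jaw, and removal mice (n = 4) had the thread taken off on day 3. The sources used here give neither the day of tissue collection, nor the age of the mice, nor whether each library is a separate animal, and p-values therefore reflect only how far these libraries differ among themselves. A thread around a tooth gathers bacterial plaque and brings on periodontitis, and the groups let the epithelium be compared with the thread in place and after it was taken off.

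Stratified epithelium such as that of the gum renews itself from dividing keratinocytes in its lowest layer, whose daughters move outward, differentiate and are shed. Transcripts of mitotic genes are scarce in resting cells and build up in G2 and mitosis, under repression by the DREAM complex in quiescent cells and activation by B-MYB and FOXM1 in cycling ones. The protein of Mki67, Ki-67, coats mitotic chromosomes and keeps them apart. Aspm sits at spindle poles, and the kinesin Kif14 and the GTPase-activating protein Racgap1, a part of the centralspindlin complex, act in cytokinesis. Neil3 is a DNA glycosylase that removes oxidised bases and unhooks crosslinks between DNA strands in replicating cells.

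The table is a selected one, and this bears on every count that follows. When DESeq2 was run with a batch term, each of the 178 genes reached an unadjusted p of 0.0103 or less against naive in the ligature or the removal group, so membership of the table already goes with a difference between these groups. Counts of the 178 genes summed to 282274 to 503570 per library, which is not the libraries' depth; that depth is unknown. The 5 genes had between 86 counts (Neil3) and 6080 counts (Mki67) in a library and all passed the filter on low counts. Of 165 genes in 7 lists of cell cycle, replication, repair and growth arrest genes, 11 were in the table, these 5 included, and the others, among them Top2a, Cdk1, Ccnb1 and Pcna, were not analysed here. In these bulk libraries, more cycling cells and more transcript per cycling cell cannot be told apart.

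The promoter windows of 3 of the 5 genes hold a shared stretch of letters. Sequences are RefSeq's (build GRCm38.p6, another build than the GRCm39 named for the deposited data), and all 5 genes were matched by symbol. Motifs searched were the cell cycle genes homology region (CHR), through which DREAM acts, as TTTGAA or TTTAAA, and the CCAAT box of NF-Y, as CCAAT, each on both strands of the window from 250 bases before to 50 from the start. In Mki67, Aspm and Racgap1, TTTGAA was followed by a base and CG. The stretches below run from 150 bases before the start through the first 20 bases of the gene, 5′ to 3′ on the gene's strand, with TTTGAANCG and CCAAT (or ATTGG, its reverse complement) in capitals. They lie at chr7:135716360-135716529 (minus strand), chr1:139454623-139454792 (plus strand) and chr15:99651637-99651806 (minus strand).
Mki67: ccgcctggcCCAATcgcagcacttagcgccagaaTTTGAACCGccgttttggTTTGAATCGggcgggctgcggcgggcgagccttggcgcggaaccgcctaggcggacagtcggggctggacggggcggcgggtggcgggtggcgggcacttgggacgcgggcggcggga
Aspm: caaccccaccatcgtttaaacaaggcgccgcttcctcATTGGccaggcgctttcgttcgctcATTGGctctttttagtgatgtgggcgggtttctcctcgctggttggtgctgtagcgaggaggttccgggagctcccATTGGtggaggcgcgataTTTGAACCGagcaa
Racgap1: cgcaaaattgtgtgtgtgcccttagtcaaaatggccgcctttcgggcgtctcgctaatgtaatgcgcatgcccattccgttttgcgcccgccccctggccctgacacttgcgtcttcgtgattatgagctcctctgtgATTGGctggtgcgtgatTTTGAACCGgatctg
TTTGAANCG, a motif chosen after these sequences were seen, stood at bases -116 to -108 and -98 to -90 in Mki67, 7 to 15 in Aspm and 6 to 14 in Racgap1, counted from 1 at the start. It was found in 0.362% of all 32851 RefSeq promoter windows (119 windows). TTTGAA alone was in 4 of the 5 windows and in 17.9% of all windows, TTTAAA in 2 of 5 and 13.2%, and CCAAT in 4 of 5 and 37.4%. The Neil3 window held none of these motifs. The start used for the Kif14 window lies 1505 bases downstream of the first Kif14 start in GENCODE vM21, so its matches may not describe the promoter in use. A match is a description of letters and does not show that a factor binds.

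With the ligature in place all 5 genes were higher than in naive epithelium, by 1.32 to 1.67 times (edgeR quasi-likelihood test on raw counts, adjusted p under 0.05 over the 176 genes tested). Of all genes tested, 85.2% were called in this comparison and 28.4% were called higher (50 of 176), so a call by itself sets no gene of this table apart. The median log2 fold change was 0.53 for the 5 genes and -0.38 for all genes tested. The values below are normalised read counts, that is, raw counts divided by the authors' size factor for each library.

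Mki67 (ENSMUSG00000031004), the usual marker of cycling cells, stood at 3653, 3365, 3358 and 3328 in naive replicates 1 to 4 and at 5180, 4230 and 5403 in ligature replicates 1 to 3. The naive libraries lay close together and every ligature library was above them. The naive mean was 3426 ± 152.4 (SD, n = 4) and the ligature mean 4938 ± 623.1 (n = 3); Mki67 rose by 0.53 ± 0.12 log2 units (SE; edgeR adjusted p = 0.00371). In the removal libraries 1 to 4 Mki67 stood at 4345, 3865, 5229 and 3791, all above the naive range and with replicates 1 and 3 inside the ligature range.

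Aspm (ENSMUSG00000033952), needed to focus spindle poles, had 476.8, 552.2, 503.1 and 493.8 in naive and 776.2, 619.8 and 757.9 in ligature libraries. The groups did not overlap, and the log2 fold change was 0.50 ± 0.12 (edgeR adjusted p = 0.00371). After removal the counts were 597.4, 572.6, 725.9 and 591.6. All 4 removal libraries exceeded the highest naive one, and 3 of them lay below the lowest ligature library.

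Kif14 (ENSMUSG00000041498), the motor of the group, had 245.8, 248.0, 240.3 and 218.8 in naive libraries and 375.8, 293.9 and 400.8 with the ligature. These groups did not overlap either, and the fitted log2 change was 0.58 ± 0.15 (edgeR adjusted p = 0.00474). The removal libraries had 297.0, 250.2, 304.1 and 230.7. Replicate 4 was within the naive range and replicate 2 just above it, while replicates 1 and 3 were above the lowest ligature library.

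Racgap1 (ENSMUSG00000023015) showed the widest naive spread of the 5 relative to its mean, with 721.6, 848.7, 615.3 and 759.2. Its ligature libraries had 1064, 840.7 and 1004, so ligature replicate 2 fell just below naive replicate 2 and the groups overlapped. The log2 fold change was 0.40 ± 0.12 (edgeR adjusted p = 0.011). Removal libraries had 875.4, 794.0, 943.9 and 889.0, of which 3 were above all naive libraries.

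Neil3 (ENSMUSG00000039396), the repair enzyme, had the lowest counts and the largest change. It had 126.6, 117.2, 113.6 and 124.8 in naive libraries and 230.9, 182.9 and 188.8 with the ligature, without overlap. The means were 120.5 ± 6.17 (SD, n = 4) and 200.9 ± 26.2 (n = 3), and Neil3 rose by 0.74 ± 0.15 on the log2 scale (95% interval 0.40 to 1.07; edgeR adjusted p = 0.00252). After removal its counts were 189.8, 154.5, 204.9 and 172.2, still above every naive library.

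**Figure D1:**
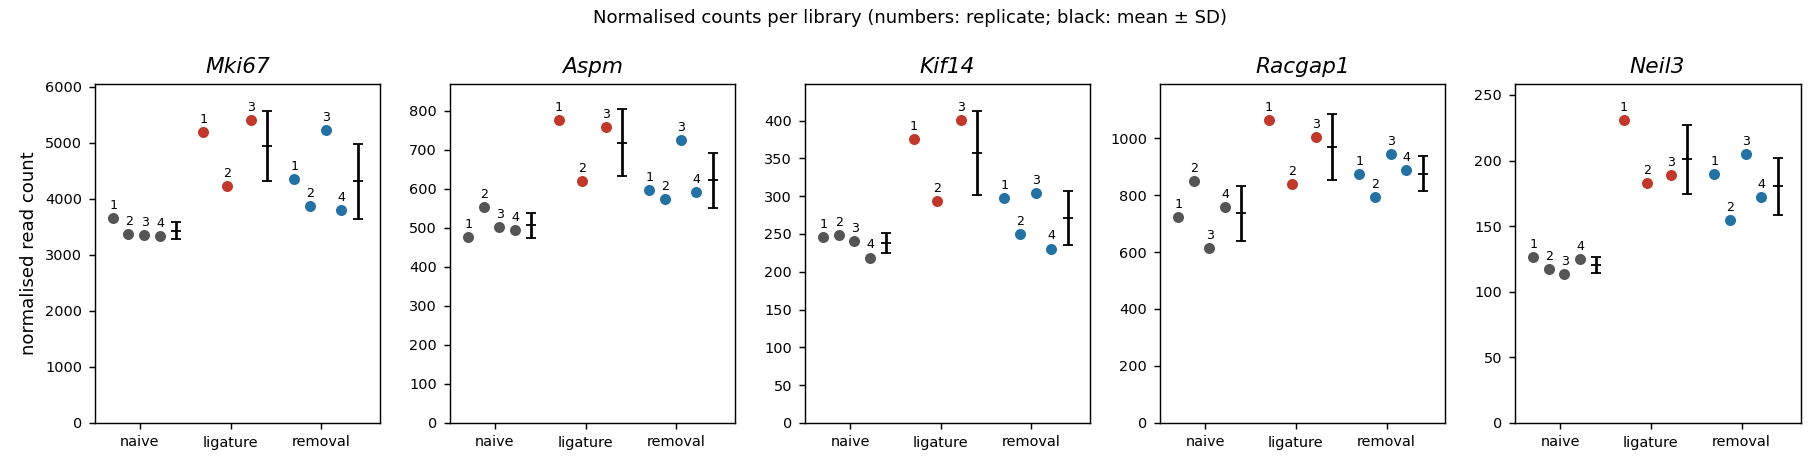
Normalised read count of each gene (vertical axes, from 0) in each library; numbers are replicates, and black marks give the mean ± SD of naive (n = 4), ligature (n = 3) and removal (n = 4) libraries. Every ligature library lies above every naive one except for Racgap1, and ligature replicate 2 is the lowest ligature library in all 5 panels.

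Ligature and naive libraries did not overlap, with ligature higher, in 4 of the 5 genes and in 25.6% of the genes tested. On the authors' batch-corrected values Racgap1 no longer overlapped, but the share of all genes without overlap on those values was not counted. Ranked from the highest log2 fold change, Neil3 was at 7, Kif14 at 17, Mki67 at 21, Aspm at 24 and Racgap1 at 41 of 176. The 5 genes thus stood among the 50 called higher but not at their head, as the plot of ranked fold changes shows.

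**Figure D2:**
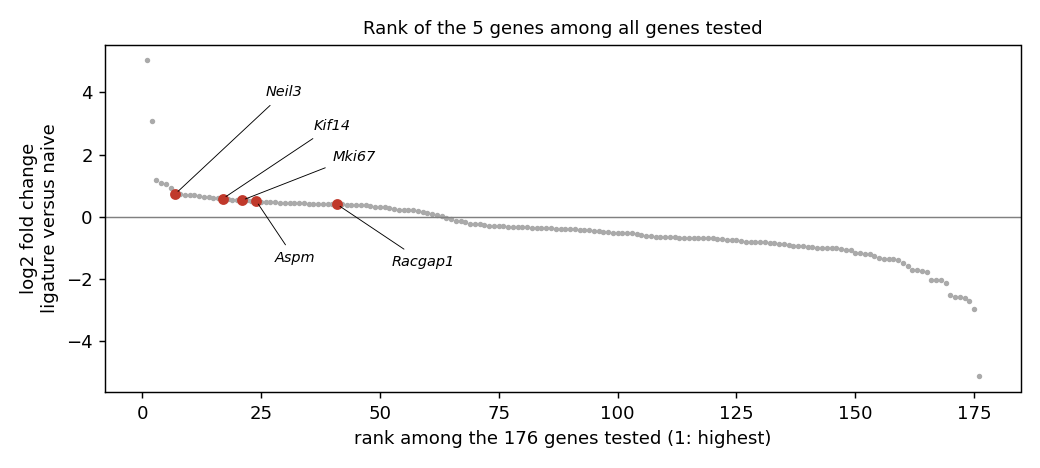
Log2 fold change of ligature against naive (vertical axis) for the 176 genes tested, in order of rank (horizontal axis); red points are the 5 genes. They lie between 0.40 and 0.74, in a table where the median is -0.38.

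The 5 genes were also higher with the ligature under another scaling of the libraries, which could not test their direction. TMM factors over the table raise the median of all genes to -0.02, and with them the 5 genes were again all called higher (64 of 176 genes, 36.4%), at log2 fold changes of 0.76 to 1.09. TMM moved the fold changes of the table upward as a whole, so it could only raise the 5 genes further. The size of the change did depend on the scaling, so these folds are relative to the deposited scale. The authors' batch correction divides the libraries into 2 sets (A and B), found from the corrected values without use of the group labels. In set A (ligature n = 1, naive n = 2) the log2 ratio of means was 0.56 for Mki67, 0.59 for Aspm, 0.61 for Kif14, 0.44 for Racgap1 and 0.92 for Neil3. In set B (ligature n = 2, naive n = 2) it was 0.53, 0.47, 0.60, 0.43 and 0.64 in the same order, so all 5 were higher with the ligature in both sets.

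After removal of the ligature 2 of the 5 genes, Neil3 and Mki67, were higher than in naive epithelium (edgeR adjusted p = 0.0124 and 0.0423), in a comparison with 37.5% of 176 genes called and 13.1% called higher. Neil3 rose by 0.58 ± 0.15 on the log2 scale (95% interval 0.26 to 0.90), which is 1.49 times the naive level. Its call held in all 19 other settings tried. Mki67 rose by 0.33 ± 0.12, and its call was lost on leaving out any 1 of the 4 naive libraries or removal replicates 1 or 3, at log2 fold changes of 0.22 to 0.36. For Aspm, Racgap1 and Kif14 the values were 0.30 ± 0.11, 0.25 ± 0.11 and 0.18 ± 0.14 (edgeR adjusted p = 0.0508, 0.0941 and 0.27).

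Removal and naive libraries did not overlap in Mki67, Aspm and Neil3, with removal higher; the same held for 15.9% of the genes tested. The call for Aspm turned on the setting: it was made with DESeq2 (adjusted p = 0.0338), with a batch term (0.0378 in edgeR) and with TMM (0.00815 in edgeR). With the batch term 126 genes were called in all, against 66 without it, and the count for DESeq2 is not given here. With TMM, 4 of 5 genes were called higher (28.4% of all genes), and Kif14 was not (0.39, edgeR adjusted p = 0.0572). For Kif14 set A, with 3 removal and 2 naive libraries, gave a log2 ratio of 0.08, and set B, with 1 and 2, gave 0.37. This comparison shares its naive libraries with that of ligature against naive, and the 2 sets of fold changes are not independent.

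Between removal and ligature none of the 5 genes was called in edgeR (0 of 5 at adjusted p under 0.05). Of 176 genes, 19.9% were called there and 2.84% called lower. At an unadjusted edgeR p under 0.05, 1 of the 5 passed, against 64 of the 176 genes, and DESeq2 called 1 of the 5. In both cases the gene was Kif14, at a log2 fold change of -0.40 ± 0.15 (95% interval -0.72 to -0.08; edgeR adjusted p = 0.0647, DESeq2 adjusted p = 0.043, with 4.55% of genes called lower there). With TMM Kif14 was called lower, at -0.55 (edgeR adjusted p = 0.0416; 6.82% of genes called lower), and median-of-ratios factors called 4 of 5 lower, all but Neil3 (17.0% of genes called lower). The intervals of the other genes were -0.47 to 0.07 for Mki67, -0.46 to 0.05 for Aspm, -0.42 to 0.12 for Racgap1 and -0.49 to 0.18 for Neil3. Whether Mki67, Aspm and Racgap1 were called lower after the thread was taken off thus turned on the scaling. Neil3 was called in none of these settings. The groups overlapped in all 5 genes, but the share of all genes that overlapped is not given here, so this sets the 5 genes apart from no others. In Neil3 the 2 library sets differed in direction, at -0.38 in set A (3 against 1 library) and 0.03 in set B (1 against 2).

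**Figure D3:**
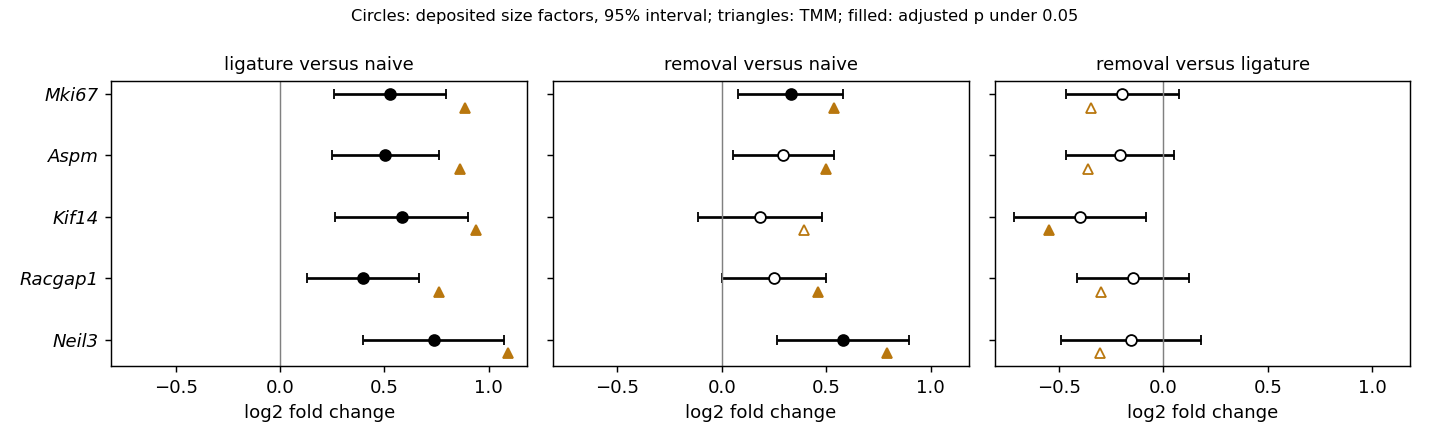
Log2 fold change of each gene (horizontal axis) in the 3 comparisons; circles and bars give edgeR's estimate and 95% interval with the deposited size factors, triangles the estimate with TMM, and filled symbols an adjusted p under 0.05. All circles are filled for ligature against naive, those of Mki67 and Neil3 for removal against naive, and none for removal against ligature.

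By group means, all 5 genes were ordered naive, removal, ligature from low to high, an order found in 25.0% of the genes tested. For Mki67 the removal mean was 4307 ± 661.6 (SD, n = 4), and for Neil3 180.4 ± 21.8. With the deposited size factors in edgeR, the places of naive at the bottom passed a test (all 5 genes against ligature, Mki67 and Neil3 against removal), and the place of removal below ligature did not. That place passed for Kif14 in DESeq2 and with TMM, and for all but Neil3 with median-of-ratios factors. Membership of the table already goes with a difference from naive in these same libraries, which favours the tests against naive. The contrast between passed and failed places is therefore no result on the order of the groups.

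The 5 genes shared the lowest ligature library and the highest removal library, and were split over the other extremes. Ligature replicate 2 was the lowest of its group for all 5 genes, against 45.5% of the 178 genes of the table. Removal replicate 3 was the highest removal library for all 5, against 27.5% of the table. In naive epithelium the highest library was replicate 2 for Aspm, Kif14 and Racgap1 and replicate 1 for Mki67 and Neil3, and the lowest was replicate 4 for Mki67 and Kif14, replicate 3 for Racgap1 and Neil3 and replicate 1 for Aspm. The highest ligature library was replicate 3 for Mki67 and Kif14 and replicate 1 for the others, and the lowest removal library was replicate 4 for Mki67 and Kif14 and replicate 2 for the others. No test was run on this sharing. Krt10, a keratin of suprabasal cells, was also lowest in ligature replicate 2 and highest in removal replicate 3, and so was the kinase gene Wee1. The macrophage marker Cd68 was lowest in ligature replicate 1 and in removal replicate 3. The part of Krt10 in the values of the 5 genes was not tested.

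**Figure D4:**
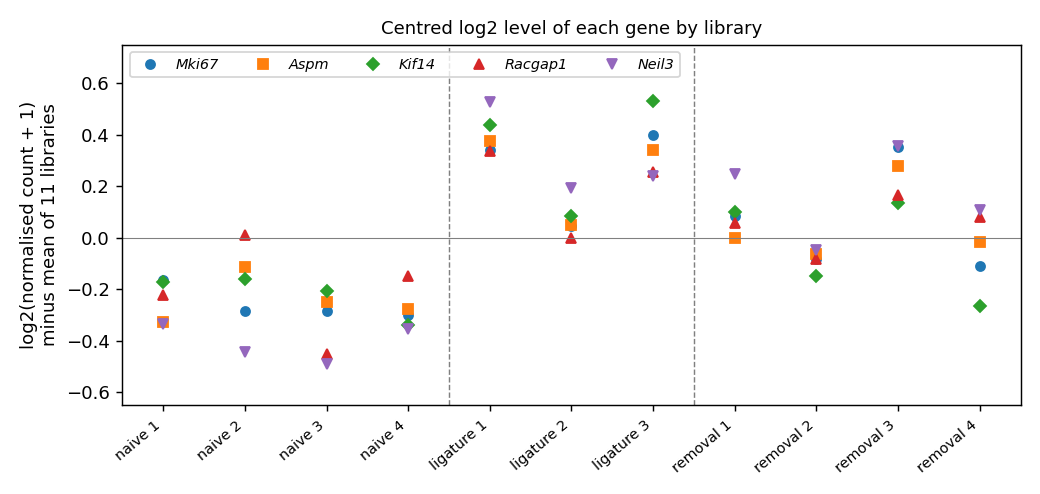
Centred log2 level of each gene (vertical axis: log2(normalised count + 1) minus the gene's mean over the 11 libraries) by library (horizontal axis). In each gene ligature replicate 2 lies below the other ligature libraries and removal replicate 3 above the other removal libraries.

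Counting error accounts for different shares of this spread. For Mki67 in naive libraries the coefficient of variation was 4.45%, where counting error alone gives 1.76%, and in ligature and removal libraries it was 12.6% and 15.4% against 1.36% and 1.54%. For Neil3, with fewer counts, the naive value of 5.12% was below the 9.34% that counting gives, and the ligature and removal values were 13.0% and 12.1% against 6.74% and 7.52%. In Mki67, Aspm, Kif14 and Neil3 the ligature and removal libraries varied more than the naive ones, and in Racgap1 the naive coefficient was the largest (13.1%, against 11.9% and 7.08%); these differences in spread were not tested.

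Ratios between genes within a library do not depend on how libraries are scaled. The log2 ratio of Aspm to Mki67 was -2.76 ± 0.14 in naive, -2.78 ± 0.05 in ligature and -2.79 ± 0.09 in removal libraries (SD; n = 4, 3 and 4), with no difference above the spread. Transcript lengths enter these ratios, so their size says nothing of which gene is the more abundant. The log2 ratio of Neil3 to Mki67 was -4.83 ± 0.06, -4.62 ± 0.19 and -4.57 ± 0.10 in the same groups, 0.21 and 0.26 above naive with the ligature and after removal. For Kif14 to Mki67 the values were -3.85 ± 0.08, -3.80 ± 0.05 and -3.99 ± 0.10, so that the removal mean lay 0.14 below the naive mean. No test was run on these ratios.

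The genes most like the 5 were sought by the root mean square difference, over the 11 libraries, between a gene's centred log2 profile and the mean profile of the 5. The 3 closest were H1f0 (0.055), Mef2a (0.081) and Syne2 (0.086), against a median of 0.451 over all genes outside the 5. The 5 genes themselves lay at 0.056 (Aspm) to 0.133 (Neil3), each being part of the mean profile, which draws them closer to it. Neil3 was at rank 16, with further genes outside the 5 ahead of it. H1f0, a linker histone, stood at 2166 ± 174.8 normalised counts in naive (SD, n = 4), 3118 ± 298 in ligature (n = 3) and 2614 ± 278.2 in removal libraries (n = 4). Mef2a, a transcription factor, went from 995.2 ± 39.5 to 1327 ± 110 and 1238 ± 119.7 in the same groups, and Syne2, which encodes the nuclear envelope protein nesprin-2, from 1182 ± 85.8 to 1715 ± 246.7 and 1446 ± 147.4. The table was selected for genes that differ between these groups, which favours such likeness.

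The growth arrest list genes that were in the table went the other way with the ligature. Of 22 genes of a growth arrest list, 5 were in the table, and all 5 fell in ligature against naive, where 56.8% of all genes tested were called lower; their median log2 fold change was -0.67 and that of all genes -0.38. With TMM 3 of the 5 were called lower (28.4% of all genes), and Plk2 and Plk3 were not (both edgeR adjusted p = 0.0539). Transcripts of these genes are also known to be induced early by stress.

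Gadd45g, a stress sensor that inhibits the Cdk1 and cyclin B kinase, fell most. Its mean was 688.2 ± 57.2 (SD, n = 4) in naive and 263.8 ± 38.5 (n = 3) in ligature libraries, with a fitted change of -1.38 ± 0.17 log2 units (edgeR adjusted p = 0.000201). The antiproliferative Btg2 fell from 5361 ± 194.4 to 3060 ± 297.1 (-0.81 ± 0.13, edgeR adjusted p = 0.000399). Gadd45b and the stress-induced polo-like kinases Plk3 and Plk2 fell by 0.67, 0.66 and 0.62 on the log2 scale.

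After removal 4 of the 5 were lower than in naive epithelium (24.4% of all genes called lower), Gadd45g at 427.7 ± 81.8 and Btg2 at 3569 ± 598.7 (n = 4 each). The call for Plk3 was lost on leaving out naive replicates 1, 2 or 4 or removal replicates 1 or 3. Plk2 stood at -0.14 ± 0.12 (edgeR adjusted p = 0.318), and at 0.06 with TMM. Relative to the ligature group Gadd45g and Plk2 rose by 0.70 ± 0.16 and 0.48 ± 0.13 (edgeR adjusted p = 0.0236 and 0.0276; 17.0% of all genes called higher), and neither was called with TMM (adjusted p = 0.0532 and 0.0572). Both calls were also lost on leaving out any 1 of the 3 ligature libraries or removal replicates 2 or 4, at log2 fold changes of 0.60 to 0.81 for Gadd45g and 0.39 to 0.53 for Plk2. Across the 3 groups the Gadd45g libraries ranged over separate intervals, with 632.6 to 757.4 in naive, 226.6 to 303.6 in ligature and 316.1 to 506.7 in removal. The nearest ligature and removal libraries, at 303.6 and 316.1, lay close together. The share of all genes that separate in this way is not given here.

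Wee1, the kinase that holds Cdk1 inactive until mitosis, was the only gene of a list of 23 mitotic kinases and checkpoint genes in the table. It fell from 271.5 ± 22.6 in naive to 203.2 ± 26.2 in ligature libraries (-0.42 ± 0.15, edgeR adjusted p = 0.0207), a call lost with TMM (-0.06) and on leaving out naive replicate 2 or ligature replicate 2. After removal it stood at 327.9 ± 45.2, above ligature by 0.69 ± 0.15 on the log2 scale (edgeR adjusted p = 0.0221, and 0.0459 with TMM). That call was lost without ligature replicate 1 or 2 or removal replicate 2 or 4, at log2 fold changes of 0.62 to 0.77. Its difference from naive, 0.27 ± 0.14, did not pass the test (edgeR adjusted p = 0.107), but with TMM it was called higher (0.47, edgeR adjusted p = 0.0275).

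**Figure D5:**
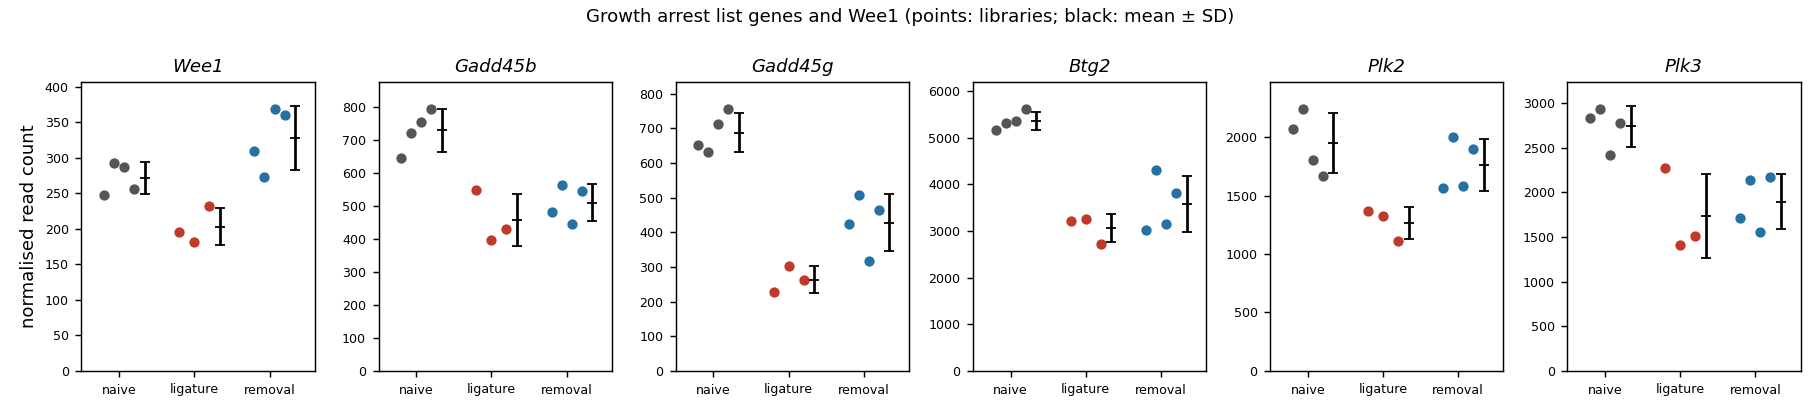
Normalised read count (vertical axes, from 0) of Wee1 and of the 5 growth arrest list genes by group; points are libraries, and black marks give the mean ± SD (naive n = 4, ligature n = 3, removal n = 4). In Gadd45g the ligature libraries lie between 226.6 and 303.6, below all others.

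Of 82 marker genes of 10 cell types, 2 were in the table. Krt10 had 81960 to 109600 normalised counts in naive, 116400 to 187200 in ligature and 88350 to 162600 in removal libraries, and rose with the ligature by 0.64 ± 0.22 on the log2 scale (edgeR adjusted p = 0.0183; call lost without naive replicate 4 or ligature replicate 1). The macrophage marker Cd68 had 221.9 to 335.7, 170.4 to 190.6 and 208.2 to 237.8, and fell by 0.67 ± 0.16 (edgeR adjusted p = 0.00402; call lost with TMM). Basal keratinocyte, T cell, B cell, neutrophil, fibroblast and endothelial markers were not analysed here, so the cell type that carried the mitotic transcripts was not tested. In GENCODE vM21 a feature of uncertain status, Gm45240, overlaps Mki67 on the opposite strand and 2 processed pseudogenes lie within Kif14. The sources used here do not state the strand setting of the counting, and reads shared with these features could not be separated.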

How the data were processed

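The 5 genes, the lists and the tests were chosen with earlier results of these data known. RNA of 11 libraries was tabulated by the authors for 178 genes, with 3 values per library. Raw counts were deposited by the authors as whole numbers. The deposited normalised counts, a signal never below 0, are raw counts over a size factor for each library, from 0.757 to 1.21 (largest deviation from this 0.00321). Batch-corrected values, deposited by the authors on the same linear scale, are treated as a score, since 7 lie below 0. The build GRCm39 and the tools DESeq2 1.36.0, HTSeq 2.01, TopHat2 2.1.1 and cutadapt 2.10 are listed in the submitters' processing notes with no role. The sources used here state neither the correction method nor how genes were selected.

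The test was edgeR's quasi-likelihood F test on raw counts (edgeR 4.0.16 in R 4.3.3), two-sided, with the 3 groups of 11 libraries fitted together. Libraries were scaled by the deposited size factors, low counts were removed by the default filter by group (176 genes left), and p-values were adjusted by Benjamini-Hochberg over those genes. DESeq2 1.42.0 served as an alternative, with other scalings, filters, a batch term, a replicate block and each library left out. The library sets were the 1 division among 957 that made the corrected values linear in the normalised ones (median residual 4.2e-05% of a gene's mean; the next best division left 1.71%). The fit of ligature against naive was tested on simulated data. Genes named by rule were the 5 genes, the 3 with the most similar profile (pseudocount 1) and 6 list genes; Krt10 and Cd68 were added as the cell type markers in the table.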

Additional observations from a re-analysis of the deposited data

Results flagged for a closer look

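In Mki67, naive replicate 1 (3653 normalised counts) stood apart from the other naive libraries, which had 3328 to 3365. In Aspm, removal replicate 3 (725.9) stood apart from the other removal libraries, which had 572.6 to 597.4. The gap was 0.887 and 0.838 of the group's range, above Dixon's critical value for 4 libraries at the 95% level. Such gaps were looked for in the naive and the removal libraries of each of the 5 genes, 10 checks in all, and chance gives about 1 in 20. The checks are not independent, since the genes share their libraries and removal replicate 3 was the highest removal library for all 5.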

How the results depend on the processing

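In ligature against naive the 5 genes were called higher in edgeR or DESeq2 under each of the 19 alternatives. These were 8 settings and 11 fits with a library left out, the latter calling 130 to 154 genes of the table. The selection of the table favoured these calls, and the adjustment of p-values over its genes does not take it into account. Log2 fold changes ranged from 0.46 to 0.89 for Mki67, 0.44 to 0.86 for Aspm, 0.49 to 0.94 for Kif14, 0.32 to 0.76 for Racgap1 and 0.62 to 1.09 for Neil3. In removal against naive, 2 of the 5 were called, and 1 to 3 with a library left out. TMM factors called 4, where 28.4% of all genes were called higher, against 13.1% with the deposited size factors. Median-of-ratios factors also called 4, and the share of all genes called higher with them is not given here. The count over all genes in removal against naive was 66, 126 with a batch term and 38 to 78 with a library left out (43, 42 and 38 without naive replicate 1, naive replicate 4 or removal replicate 3). In removal against ligature, 0 of the 5 were called, 1 with TMM, 4 with median-of-ratios factors and 1 with DESeq2; with a library left out it was 0 in each edgeR fit. The count over all genes there was 35 and 0 to 49 with a library left out (0 without ligature replicates 1 or 2 or removal replicates 2 or 4, 3 without ligature replicate 3, 21 without removal replicate 3). No log2 fold change of the 5 genes changed sign. The same alternatives were run for the other genes with a printed test after their values were seen, and among these Plk2 in removal against naive changed sign, to 0.06 with TMM and 0.01 with median-of-ratios factors, without a call. Same-numbered libraries of different groups had correlations of their deviations from -0.48 to 0.53 across genes. The value of 0.53 was between naive 1 and ligature 1, both in set A, and -0.48 between naive 2 (set A) and ligature 2 (set B). With the sets left in, these values cannot show whether the replicate numbers pair the libraries. A replicate block left the calls of the 5 genes at 5, 2 and 0 and gave 139, 49 and 8 calls over all genes. The causes of these shifts were not tested. The depth of the libraries is unknown, and the 3 or 4 libraries per group limit the precision of the removal comparisons.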
